A study of Mus musculus with 32 samples.

Results

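Messenger RNAs receive their poly(A) tails from a small set of proteins, and the transcripts of 9 genes encoding them were followed here through mouse oocyte maturation, with and without vitrification of the follicle. The genes were chosen by name: the poly(A) polymerases Papola and Papolg, the subunits Cpsf1, Cpsf2, Cpsf3 and Cpsf4 of the cleavage and polyadenylation specificity factor (CPSF) with the Cpsf4 paralog Cpsf4l, and the poly(A)-binding proteins Pabpc1l and Pabpn1. All 9 were among the 13175 genes of the deposited table, and all 9 passed the filter on low counts in every comparison.

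Preantral follicles of wild-type mice were vitrified or kept fresh and then grown in an encapsulated culture (eIVFG). Germinal vesicle (GV) oocytes, which have finished growing but not resumed meiosis, were collected on day 8 (4 from fresh and 4 from vitrified follicles). Metaphase II (MII) oocytes, the ovulated eggs, were collected on day 9 after hCG, the hormone that triggers ovulation (12 from each treatment). Each oocyte gave 1 library, and the labels do not say which mouse or culture it came from, so p-values measure the spread between oocytes. No allele other than wild type and no agent other than hCG is named for any group.

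As background, CPSF recognizes the polyadenylation signal near the end of a new transcript and cuts it downstream, a poly(A) polymerase then adds the tail, and Pabpn1 coats the tail in the nucleus. A fully grown oocyte has stopped transcribing and lives on stored messages, many of them held with short tails. During meiotic maturation the tails of selected messages are lengthened in the cytoplasm, under control of the protein Cpeb1, while other messages are degraded. The library kit primes cDNA synthesis on poly(A), so a transcript's value may depend on its tail as well as on its abundance.

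The genes' own 3′ ends carry the sequences that this machinery reads, and 30 bases of them are shown for the genes whose levels differed between stages by the widest margins, and for Cpsf2 and Pabpc1l. They come from the GRCm38 genome and the GENCODE M21 annotation, are written in the sense of the transcript, and carry the polyadenylation signal (AATAAA or its common variant ATTAAA) in capitals. Each is the end of the annotated transcript, except that of Pabpn1, which starts at its signal, 53 bases before the end.

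Cpsf2 (chr12:102006395-102006424, plus strand): tatttcgctaataAATAAAagatgctgagc

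Cpsf4 (chr5:145182012-145182041, plus strand): tatgaggttgATTAAAaagcttgtttttta

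Pabpc1l (chr2:164050509-164050538, plus strand): ctttatatATTAAAaaatgctgcaaaaatc

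Pabpn1 (chr14:54898117-54898146, plus strand): ATTAAAaaaaaaaaagaaaaacagaagatg

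Cpsf4l (chr11:113698172-113698201, minus strand): atactcgagaatatactgtgtgttctgtgt

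In the last 100 bases of the basic protein-coding transcript with the farthest 3′ end, AATAAA or ATTAAA was present in 4 of the 9 genes, namely the 4 shown with capitals. Over 13042 transcripts of the genes in the table, 1 per gene, 82.3% held either signal in that window on the sense strand. The signal in capitals, the copy nearest the end, began 17 bases from the end in Cpsf2, 20 in Cpsf4 and 22 in Pabpc1l. In Cpsf2 another AATAAA overlaps the capitals on their upstream side. The cytoplasmic polyadenylation elements TTTTAT and TTTTAAT, the letters Cpeb1 is known to bind, were in 0 of the 9 windows and in 19.5% of all. The gene annotations of Papola and Cpsf1 extend beyond the ends of these transcripts, and the bases beyond were not searched. These letters describe the annotated ends, and the ends used in these oocytes were not measured.

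Libraries held 10357543 to 17687247 counts in fresh and 11159677 to 16554201 in vitrified GV oocytes, and 6196976 to 10142902 in fresh and 5300208 to 12206512 in vitrified MII oocytes. All 13 oocyte markers examined, such as Gdf9 and Zp3, were detected in each group, with a summed level from 11881 to 27228 CPM (counts scaled to 1e6 of the TMM-scaled library size) over all oocytes. Cumulus and granulosa markers, of which 14 of 16 were in the table, summed to 44.3 to 101 CPM in GV oocytes, to 49.97 to 4836 in fresh MII oocytes (highest in replicate 11) and to 46.7 to 680 CPM in vitrified MII oocytes (highest in replicate 12). Of those 14 markers, 3 were at 0 in all 4 fresh and 5 in all 4 vitrified GV oocytes. In MII oocytes 1 was at 0 in all 12 fresh and 0 in all 12 vitrified ones. The table holds only genes with at least 10 counts over the MII oocytes, so these numbers cannot be compared between stages. The theca marker Col1a1 reached at most 0.770 CPM. The number of the 9 genes that passed the test was the same in each comparison without 4 MII oocytes with cumulus transcripts, namely fresh replicates 1 and 11 (138 and 4836 CPM) and vitrified replicates 1 and 12 (132 and 680 CPM), while vitrified replicate 7 (174 CPM) was kept.

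The stage comparison asked how these transcripts differ between the GV oocyte and the egg. Library numbers ran from 81 to 85 in GV oocytes and from 2 to 13 and 20 to 25 in MII oocytes, and MII values alone contained fractions, so stage cannot be told apart from library series and processing. CPM are relative to a scaled library size and give no amount of RNA per oocyte. Between fresh GV and MII oocytes, 5 of the 9 genes passed the test, 1 higher (Cpsf2) and 4 lower (Cpsf3, Cpsf4, Cpsf4l and Pabpn1) in MII. Of all 11470 genes tested, 52.6% passed in that comparison, 22.8% higher and 29.8% lower. After vitrification 6 of the 9 passed, the same 5 in the same directions and Pabpc1l, lower in MII, against 57.0% of all genes, 23.3% higher and 33.7% lower. The median log2 fold change of the 9 genes was −0.74 in fresh and −1.39 in vitrified oocytes, beside −0.23 and −0.34 over all genes tested. Because the table holds only genes with at least 10 counts over the MII oocytes, these shares and medians leave out genes lost from MII. The share of the 9 that passed was near that of all genes in fresh and in vitrified oocytes, given so few genes. With library totals in place of scaled library sizes, the median over all genes moved to −0.61 and −0.81, and the calls over all genes split into 1992 higher and 4142 lower in fresh and 1945 higher and 4703 lower in vitrified oocytes, in place of 2615 and 3413, and 2678 and 3861.

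**Figure D1:**
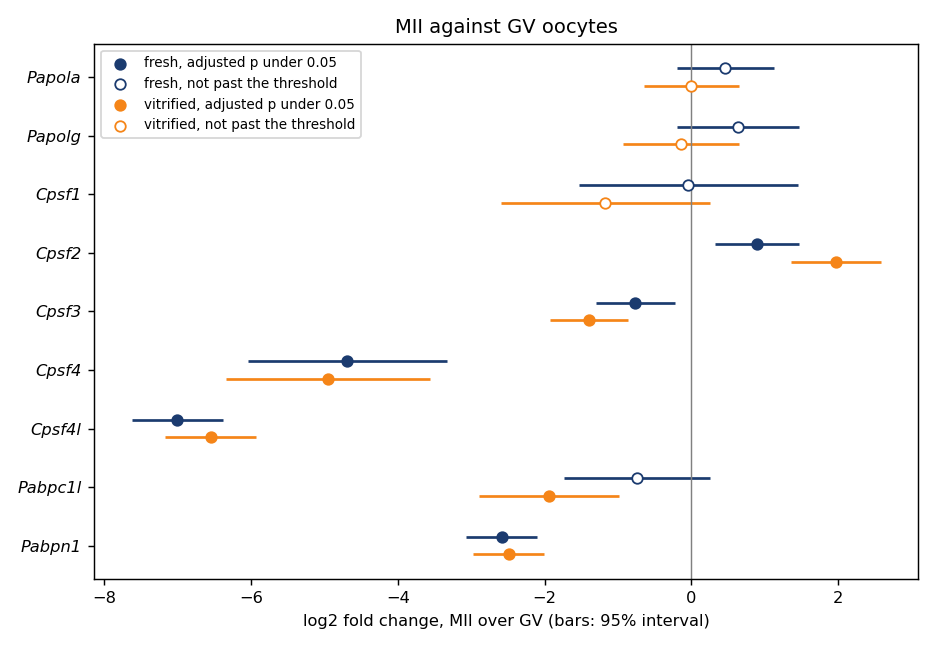
Log2 fold change of each of the 9 genes between GV and MII oocytes (x axis, MII over GV) in fresh and in vitrified culture, with 95% intervals from edgeR's quasi-likelihood fit of 32 oocytes. Cpsf4l lies farthest to the left at −7.00 in fresh and −6.55 in vitrified oocytes, and Cpsf2 lies to the right of 0 in both.

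Cpsf4l (chr11:113698172-113710017, minus strand), a paralog of the zinc-finger CPSF subunit Cpsf4, had the widest difference of the 9. Its level was 1339, 1419, 1250.2 and 2859 CPM in the 4 fresh GV oocytes and 674, 1023, 1142 and 1557 CPM in the 4 vitrified ones. In MII oocytes it ran from 3.08 through a median of 13.1 to 23.8 CPM after fresh culture and from 5.80 through 12.5 to 17.7 CPM after vitrification. The stages did not overlap in either treatment, and the lowest GV oocyte stood far above the highest MII oocyte. Over all genes, 31.0% in fresh and 33.9% in vitrified oocytes had stage ranges that did not overlap. Means fell 128-fold in fresh oocytes, from 1717 ± 765 (SD, n = 4) to 13.4 ± 5.48 CPM (SD, n = 12), and 93.5-fold in vitrified oocytes, from 1099 ± 364 (SD, n = 4) to 11.7 ± 3.66 CPM (SD, n = 12). The log2 fold change was −7.00 ± 0.31 (SE; adjusted p = 1.25e-18, edgeR's quasi-likelihood test) in fresh and −6.55 ± 0.30 (SE; adjusted p = 2.52e-18) in vitrified oocytes. By CPM, Cpsf4l ranked between place 13 and place 92 among all genes in single fresh GV oocytes, between 36 and 226 in vitrified GV oocytes, and no higher than 3971 in any MII oocyte.

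Cpsf4 (chr5:145167213-145182041, plus strand), the subunit that reads the polyadenylation signal together with Wdr33, was also nearly gone from MII libraries. Fresh GV oocytes had 30.1, 61.4, 17.4 and 87.9 CPM, and vitrified GV oocytes had 13.6, 19.5, 48.6 and 49.1 CPM. No MII oocyte exceeded 4.72 CPM, with medians of 1.85 CPM after fresh culture and 0.517 CPM after vitrification. These low values rest on at most 36 counts in a fresh and 24 counts in a vitrified MII oocyte. Cpsf4 was at 0 in 2 fresh and 1 vitrified MII oocytes, where a count of 0 allows up to 3 counts, or 0.451 to 0.524 CPM (counting error only). The ranges of the stages did not overlap in either treatment, as in 31.0% of all genes in fresh and 33.9% in vitrified oocytes. The log2 fold change was −4.69 ± 0.67 (SE; adjusted p = 3.07e-07, edgeR's quasi-likelihood test) in fresh and −4.95 ± 0.68 (SE; adjusted p = 1.49e-07) in vitrified oocytes, and the means were 26.0 and 30.9 times as high in GV. The annotated transcripts of Cpsf4 and Cpsf4l shared none of their 50-base stretches, so reads of that length separate the paralogs.

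Cpsf3 (chr12:21285391-21315056, plus strand), the endonuclease that makes the cut, was lower in MII by a smaller margin. Its level was 42.7, 60.4, 56.2 and 54.3 CPM in fresh GV and 66.8, 81.1, 86.1 and 59.4 CPM in vitrified GV oocytes. MII oocytes ran from 14.9 through 30.6 to 51.6 CPM after fresh culture and from 14.8 through 27.1 to 44.1 CPM after vitrification. All 12 vitrified MII oocytes lay below all vitrified GV oocytes, while in fresh culture 9 of 12 did so. Between the vitrified stages, ranges did not overlap in 33.9% of all genes. The log2 fold change was −0.77 ± 0.27 (SE; adjusted p = 0.0154, edgeR's quasi-likelihood test) in fresh and −1.39 ± 0.26 (SE; adjusted p = 2.22e-05) in vitrified oocytes. The fresh call was near the threshold: the adjusted p was 0.0530 without GV fresh replicate 2 and 0.0572 without GV fresh replicate 3, at log2 fold changes of −0.70 each. It also missed the threshold within either MII library series, with −0.64 (adjusted p = 0.0593) for library numbers under 20 and −0.81 (adjusted p = 0.0555) for those of 20 and over.

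Cpsf2 (chr12:101975988-102006424, plus strand), the partner of Cpsf3 that resembles it but lacks catalytic activity, went the other way. It had 89.7, 58.6, 160.1 and 50.7 CPM in fresh GV and 73.4, 55.9, 28.9 and 42.7 CPM in vitrified GV oocytes. MII levels ran from 84.98 through 157 to 235 CPM after fresh culture and from 139 through 195 to 245 CPM after vitrification. Every vitrified MII oocyte exceeded every vitrified GV oocyte, and 33.9% of all genes had vitrified stage ranges that did not overlap. In fresh culture 6 of 12 MII oocytes exceeded all GV oocytes, replicate 3 being the high one among the latter. Cpsf2 rose by 0.89 ± 0.28 (SE) on the log2 scale in fresh (adjusted p = 0.00774, edgeR's quasi-likelihood test) and by 1.97 ± 0.30 in vitrified oocytes (adjusted p = 1.01e-06). The fresh call was lost with library totals (0.57, adjusted p = 0.0797) and without GV fresh replicate 2 (0.73, adjusted p = 0.0503) or replicate 4 (0.70, adjusted p = 0.0570), and the vitrified call was kept in each of those settings. Without GV fresh replicate 3 the fresh value was 1.35.

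Cpsf1 (chr15:76595803-76607591, minus strand), the large scaffold subunit, was the scarcest of the subunits in GV oocytes per length of exon and varied widely. Its range was 2.03 to 13.4 CPM in fresh GV, 0.447 to 20.2 in vitrified GV, 0.150 to 21.9 in fresh MII and 1.13 to 20.7 CPM in vitrified MII oocytes. All 4 groups overlapped. The log2 difference between stages was −0.04 ± 0.74 (SE; adjusted p = 0.967, edgeR's quasi-likelihood test) in fresh and −1.17 ± 0.70 (SE; adjusted p = 0.154) in vitrified oocytes. The vitrified value passed with library totals (−1.69, adjusted p = 0.0438) and without MII vitrified replicate 5 (−1.58, adjusted p = 0.0430). Its 95% interval, from −2.59 to 0.25, spans both a marked fall and a slight rise.

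Pabpn1 (chr14:54892500-54898169, plus strand), which coats nuclear poly(A) and stimulates the polymerase, was several-fold lower in MII. Fresh GV oocytes had 122, 173, 72.1 and 208 CPM, and vitrified GV oocytes had 191, 86.2, 180.3 and 121 CPM. In MII it ran from 15.04 through 23.2 to 43.1 CPM after fresh culture and from 18.3 through 25.8 to 34.4 CPM after vitrification. The stages did not overlap in either treatment, as for Cpsf4 and Cpsf4l, while Cpsf2 and Cpsf3 lacked overlap in vitrified oocytes only. Over all genes, 31.0% in fresh and 33.9% in vitrified oocytes had ranges that did not overlap. The log2 fold change was −2.59 ± 0.24 (SE; adjusted p = 3.81e-11, edgeR's quasi-likelihood test) in fresh and −2.49 ± 0.24 (SE; adjusted p = 7.65e-11) in vitrified oocytes. Counts of Pabpn1 are less certain than those of the other genes, because 27.3% of the 50-base stretches of its longest transcript also occur in Gm20521, an overlapping gene on the same strand, or Gm2272. Its MII values were also not whole in 14 of 24 oocytes, against 9 for Papola and 4 for Papolg.

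Pabpc1l (chr2:164025450-164050538, plus strand) encodes the embryonic cytoplasmic poly(A)-binding protein, which mouse oocytes need to mature. Its level was 40.4, 72.4, 34.2 and 46.3 CPM in fresh GV and 24.1, 51.3, 73.2 and 104 CPM in vitrified GV oocytes. MII oocytes ran from 2.91 through 23.4 to 55.0 CPM after fresh culture and from 3.14 through 17.2 to 34.1 CPM after vitrification. The stages overlapped in both treatments. The log2 fold change was −0.74 ± 0.49 (SE; adjusted p = 0.207, edgeR's quasi-likelihood test) in fresh oocytes, where limma-voom gave −0.96 (adjusted p = 0.0450), and −1.94 ± 0.47 (SE; adjusted p = 0.000641) in vitrified oocytes. The difference between these changes did not pass its own test (−1.19 ± 0.72, adjusted p = 1.00).

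**Figure D2:**
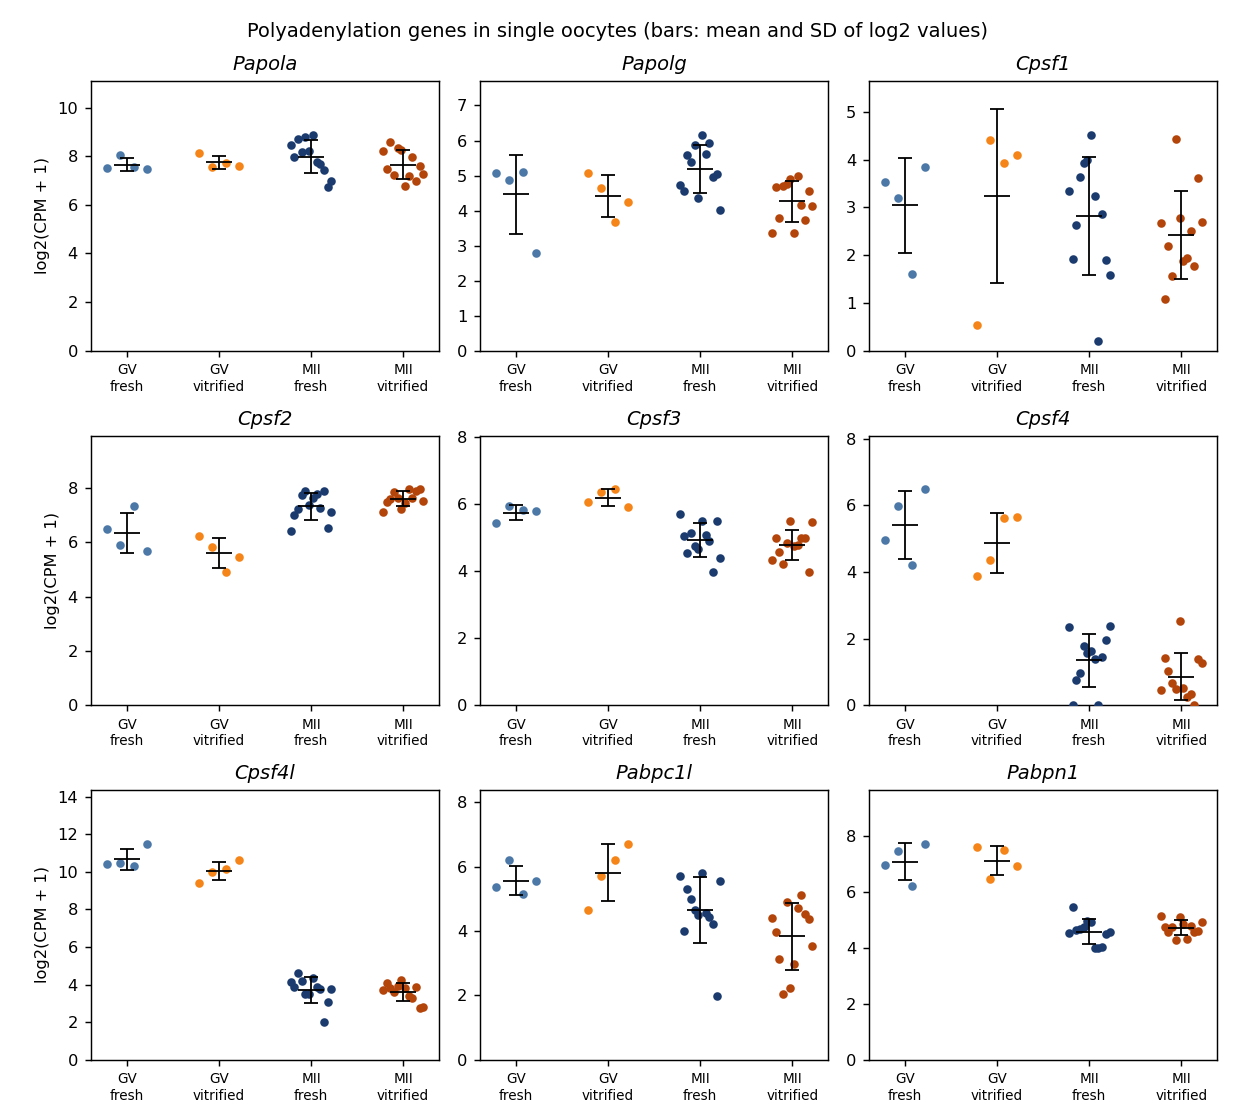
Level of each gene in single oocytes (y axis, log2 of CPM + 1) by group (x axis), 1 point per oocyte with bars at the mean and SD of the log2 values. Cpsf4l, Cpsf4 and Pabpn1 fall to separate, lower bands in MII oocytes, and the MII points of Papola lie on both sides of the GV points.

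The 2 nuclear poly(A) polymerases did not pass between stages. Papola (chr12:105784694-105838944, plus strand), the main polymerase, had 183, 261, 189 and 175 CPM in fresh GV and 277, 186, 208 and 195 CPM in vitrified GV oocytes. MII oocytes ran from 107 through 269 to 467 CPM after fresh culture and from 109 through 182 to 378 CPM after vitrification, on either side of the GV oocytes. The log2 difference was 0.46 ± 0.33 (SE; 95% interval −0.20 to 1.13; adjusted p = 0.242, edgeR's quasi-likelihood test) in fresh and −0.00 ± 0.32 (SE; −0.65 to 0.64; adjusted p = 0.998) in vitrified oocytes. Papolg (chr11:23862646-23895253, minus strand), a related nuclear polymerase, had 32.9, 28.5, 33.6 and 5.87 CPM in fresh GV and 32.5, 24.2, 11.7 and 17.99 CPM in vitrified GV oocytes. In MII it ran from 15.1 through 36.3 to 70.4 CPM after fresh culture and from 9.32 through 19.7 to 30.7 CPM after vitrification. Stage differences were 0.63 ± 0.41 (SE; adjusted p = 0.199, edgeR's quasi-likelihood test) in fresh and −0.14 ± 0.39 (SE; adjusted p = 0.781) in vitrified oocytes.

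Papola differed between the library series of the MII oocytes. In fresh MII oocytes it was 359 ± 84.9 CPM (SD, n = 7) for library numbers under 20 and 165 ± 48.4 CPM (SD, n = 5) for those of 20 and over. The series did not overlap, at 252 to 467 against 107 to 218 CPM. The share of all genes without overlap between the series was not computed, so this gap is not shown to be particular to Papola. In vitrified MII oocytes the means were 247 ± 102 (SD, n = 7) and 173 ± 49.6 CPM (SD, n = 5), and the ranges overlapped. Against fresh GV oocytes, Papola was higher by 0.86 on the log2 scale in the first series (adjusted p = 0.0137, edgeR's quasi-likelihood test) and differed by −0.20 in the other (adjusted p = 0.569). Of all genes, 5859 of 11219 passed with the first series, 2466 of them higher, and 5127 of 11101 with the other, 2362 of them higher. The part of the library series in this result was not tested further. Papolg showed no such split, with 40.6 and 37.1 CPM in fresh and 19.4 and 19.8 CPM in vitrified MII oocytes. Other genes of the 9 did differ in mean between the series. Cpsf4l had 15.9 and 9.81 CPM in fresh and 13.9 and 8.80 CPM in vitrified MII oocytes. In fresh ones Pabpn1 had 28.3 and 17.9 CPM and Cpsf1 11.4 and 3.93 CPM. The series of 20 and over had the higher mean for Cpsf4 in fresh and for Cpsf2, Cpsf3 and Pabpc1l in vitrified MII oocytes.

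**Figure D3:**
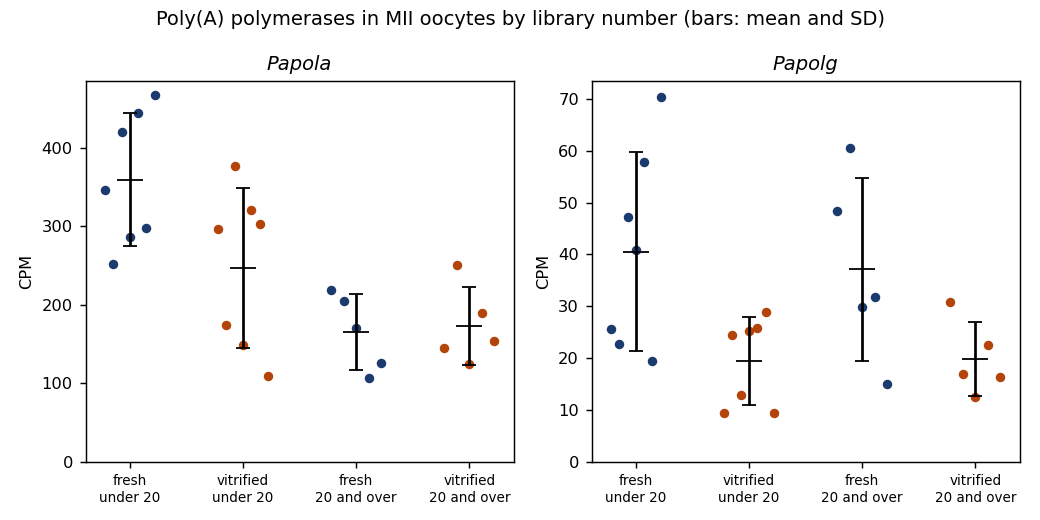
CPM of Papola and Papolg (y axes) in single MII oocytes, by treatment and library series (x axis), 1 point per oocyte with bars at the mean and SD. Fresh MII oocytes with library numbers under 20 lie at 252 to 467 CPM of Papola, above all 5 fresh oocytes of the other series.

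The treatment comparison asked whether a follicle's vitrification alters these transcripts in its oocyte. In GV oocytes none of the 9 genes passed, as none of the 10831 genes tested did (0.0%) in edgeR or DESeq2, with 180 genes (1.66%) and 0 of the 9 at an unadjusted p under 0.05. Log2 differences, vitrified over fresh, ran from −0.82 ± 0.43 (SE, Cpsf2) and −0.63 ± 0.35 (Cpsf4l) to 0.48 ± 0.29 (Cpsf3) and 0.58 ± 0.83 (Cpsf1), each with an adjusted p of 1.00 from edgeR's quasi-likelihood test. For the other 5 they were −0.57 for Cpsf4, −0.22 for Papolg, 0.03 for Pabpn1, 0.12 for Papola and 0.39 for Pabpc1l. Their intervals were wide: that of Cpsf2 ran from −1.74 to 0.10, that of Papola from −0.48 to 0.71 and that of Pabpn1 from −0.78 to 0.84, so values within these bounds remain possible. Single oocytes moved these values: with each left out in turn, Cpsf2 ran from −1.08 to −0.40 (the latter without GV fresh replicate 3), Cpsf4l from −0.83 to −0.28 and Cpsf4 from −0.85 to −0.15 (both latter without GV fresh replicate 4), and Cpsf1 from 0.26 (without GV fresh replicate 3) to 0.98 (without GV vitrified replicate 1). Papolg ran from −0.55 (without GV fresh replicate 4) to −0.0082 (without GV vitrified replicate 3), and Pabpc1l from 0.060 (without GV vitrified replicate 4) to 0.66 (without GV vitrified replicate 1). No gene of the 9 had treatment ranges that did not overlap at this stage, against 2.05% of all genes.

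In MII oocytes none of the 9 passed either, and none of 8428 genes did (0.0%), with 1053 genes (12.5%) at an unadjusted p under 0.05, Papolg and Pabpc1l among them. The mean of Papolg was 39.1 ± 17.8 CPM after fresh culture against 19.6 ± 7.62 after vitrification (SD, n = 12 each). Of the 12 vitrified oocytes 4 lay below all fresh ones, and 7 of the 12 fresh oocytes lay above all vitrified ones. The log2 difference was −0.997 ± 0.25 (SE; 95% interval −1.52 to −0.48; unadjusted p = 0.000496, adjusted p = 0.190, edgeR's quasi-likelihood test). DESeq2 gave −1.001 with an adjusted p of 0.0298, for 1 of 52 genes (0.617%) that it called. The difference was −1.06 (adjusted p = 0.152) within library numbers under 20 and −0.92 (adjusted p = 0.876) within those of 20 and over, and it ran from −1.08 to −0.89 with each oocyte left out in turn (adjusted p from 0.121 to 0.362).

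Pabpc1l averaged 28.9 ± 15.8 CPM after fresh culture against 16.4 ± 10.2 after vitrification (SD, n = 12 each), a log2 difference of −0.81 ± 0.37 (SE; unadjusted p = 0.0382, adjusted p = 0.374, edgeR's quasi-likelihood test). The gap was within library numbers under 20, where the means were 33.8 and 12.2 CPM, while in the other series they were 21.9 and 22.4 CPM and the log2 difference was 0.037. The remaining log2 differences in MII were −0.84 ± 0.63 (SE) for Cpsf4, −0.54 ± 0.49 for Cpsf1, −0.36 ± 0.23 for Papola, −0.17 for both Cpsf3 and Cpsf4l, 0.11 for Pabpn1 and 0.25 ± 0.15 for Cpsf2. Papola stood at −0.54 and 0.070 within the library series. The intervals were narrowest for Cpsf2, from −0.06 to 0.56, and for Pabpn1, from −0.26 to 0.48.

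**Figure D4:**
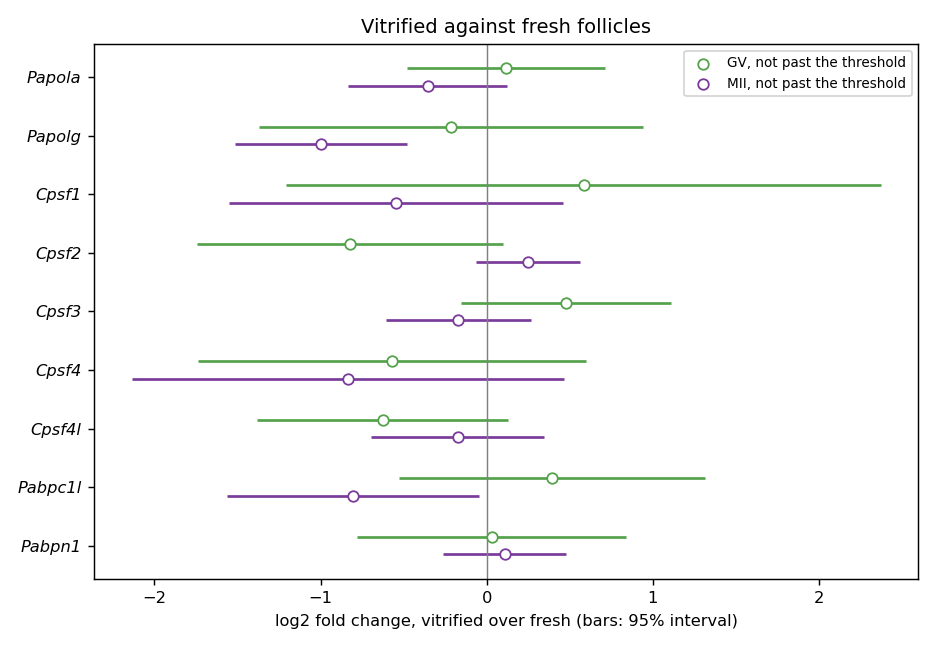
Log2 fold change of each of the 9 genes, vitrified over fresh (x axis), in GV and in MII oocytes, with 95% intervals from edgeR's quasi-likelihood fits of 8 and 24 oocytes. GV intervals are the wider ones for every gene but Cpsf4, and the MII interval of Papolg, −1.52 to −0.48, lies wholly below 0 before adjustment.

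Whether the stage change itself differed with vitrification was tested as an interaction, and 0 of the 9 genes and 0 of 11470 genes passed (0.0%). At an unadjusted p under 0.05 stood 467 genes (4.07%), and DESeq2 called 8 (0.0697%) and 0 of the 9. Cpsf2 was the gene of the 9 with an unadjusted p under 0.05: its rise was greater by 1.08 ± 0.38 (SE) on the log2 scale after vitrification (unadjusted p = 0.00739, adjusted p = 0.934, edgeR's quasi-likelihood test). Without GV fresh replicate 3, the fresh GV oocyte highest in Cpsf2, it was 0.62, and with other oocytes left out it reached 1.34. The stage calls that differ by treatment, such as that of Pabpc1l, are therefore not shown to differ between treatments.

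Levels of different genes were compared per length, as CPM per kilobase of annotated exon. In GV oocytes Cpsf4l led at 764 ± 340.4 (SD, n = 4) CPM per kilobase in fresh and 489 ± 162 in vitrified oocytes. Pabpn1 (47.4 and 47.6 CPM per kilobase) and Papola (30.6 and 32.8) followed within their spread of each other, then Pabpc1l (17.7 and 23.1), with Papolg (4.59 and 3.93) and Cpsf1 (1.51 and 2.26) last. Between them, Cpsf2, Cpsf3 and Cpsf4 lay from 8.77 to 15.7 CPM per kilobase. This order is not settled throughout. By mean and SD, Pabpc1l overlapped Cpsf2 in fresh GV oocytes, and Papola and Cpsf3 in vitrified ones. Papolg overlapped Cpsf1 in fresh and in vitrified GV oocytes. In MII oocytes Papola and Cpsf2 led and overlapped, at 42.2 ± 18.4 and 29.1 ± 9.11 CPM per kilobase in fresh and 32.8 ± 13.6 and 34.3 ± 6.27 in vitrified oocytes (SD, n = 12 each). Pabpc1l, Pabpn1, Papolg, Cpsf4l and Cpsf3 formed a middle group, each within the spread of its neighbours, from 5.95 to 10.6 CPM per kilobase in fresh and 3.57 to 8.46 in vitrified oocytes. Cpsf1 (1.47 and 1.00) and Cpsf4 (0.525 and 0.295 CPM per kilobase) came last. Cpsf4l stood highest of the 9 in GV and in the middle group in MII. With the longest transcript as length, Cpsf4l was still highest in GV and Papola and Cpsf2 in MII, and the order of the genes between changed at both stages, Pabpc1l falling behind Cpsf3 and Cpsf4 in fresh GV oocytes.

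The other genes of the pathway were taken from lists of 36 genes in the table. Between fresh GV and MII oocytes, 11 of the 34 tested were higher and 4 lower in MII, and in vitrified oocytes 9 were higher and 8 lower, while none passed in either treatment comparison or the interaction. Of all genes, 22.8% were higher and 29.8% lower in fresh and 23.3% and 33.7% in vitrified oocytes. Their median log2 fold change was 0.09 in fresh and 0.21 in vitrified oocytes, beside −0.23 and −0.34 over all genes. Of the 13 genes of nuclear cleavage and polyadenylation, 5 rose and 1 fell in fresh oocytes (22.8% and 29.8% of all genes). Cstf1, a subunit of the cleavage stimulation factor, rose by 1.85 ± 0.31 (SE) on the log2 scale, from 39.9 to 143 CPM (adjusted p = 5.68e-06, edgeR's quasi-likelihood test). Wdr33, the partner of Cpsf4 in reading the signal, rose by 1.18 ± 0.20, Cstf2, which binds RNA downstream of the cut, by 2.33 ± 0.42, and Cpsf6, a subunit of cleavage factor I, by 1.73 ± 0.33. After vitrification these 4 rose too, by 2.28, 0.96, 1.74 and 1.92, and 2 genes fell. Pcf11 (1.07) was the fifth rise in fresh oocytes and stood at 0.06 in vitrified ones, where it did not pass. Fip1l1 fell (−0.61 in fresh and −0.80 in vitrified oocytes). Cstf2t fell in vitrified oocytes (−1.18) and did not pass in fresh ones (−0.81). These 3 genes were named after their values were seen.

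Of 10 tested terminal nucleotidyltransferases other than the 2 polymerases above, 3 rose and 0 fell in fresh (22.8% and 29.8% of all genes) and 2 rose and 2 fell in vitrified oocytes (23.3% and 33.7%). Tent2, a cytoplasmic poly(A) polymerase also called Gld2, rose by 1.75 ± 0.28 (SE) on the log2 scale in fresh oocytes, from 42.9 to 144 CPM (adjusted p = 3.10e-06, edgeR's quasi-likelihood test), and by 1.01 ± 0.27 in vitrified oocytes. Mtpap, the mitochondrial poly(A) polymerase, rose by 1.22 and 1.35. Tut7, a uridylyltransferase, rose by 1.49 in fresh oocytes and stood at 0.53 in vitrified ones, where it did not pass. Tent5b and Tut1 fell in vitrified oocytes (−1.68 and −1.10), and in fresh oocytes stood at −1.08 (adjusted p = 0.0508) and −0.62 (adjusted p = 0.237).

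Among 7 tested poly(A)-binding proteins and partners, 2 rose and 2 fell in fresh (22.8% and 29.8% of all genes) and 2 rose and 3 fell in vitrified oocytes (23.3% and 33.7%). Zc3h14, a nuclear poly(A)-binding zinc-finger protein, rose by 2.52 ± 0.26 (SE) on the log2 scale in fresh and by 1.95 ± 0.25 in vitrified oocytes (adjusted p = 3.14e-10 and 2.54e-08, edgeR's quasi-likelihood test). Pabpc4 rose by 0.99 and 1.53. Paip2 and Paip2b, which keep cytoplasmic poly(A)-binding protein off the tail, fell, with log2 fold changes of −3.39 and −2.72 in fresh and −4.87 and −3.20 in vitrified oocytes. The third fall after vitrification was that of Pabpc1 (−2.77), named after its value was seen. In fresh oocytes Pabpc1 stood at −1.62 and did not pass. Of 4 CPEB genes, Cpeb4 rose by 1.60 and 2.08, and Cpeb1 fell, by a log2 fold change of −1.40 in fresh and −1.09 in vitrified oocytes, where its mean went from 442 to 208 CPM. Cpeb2 and Cpeb3 did not pass.

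**Figure D5:**
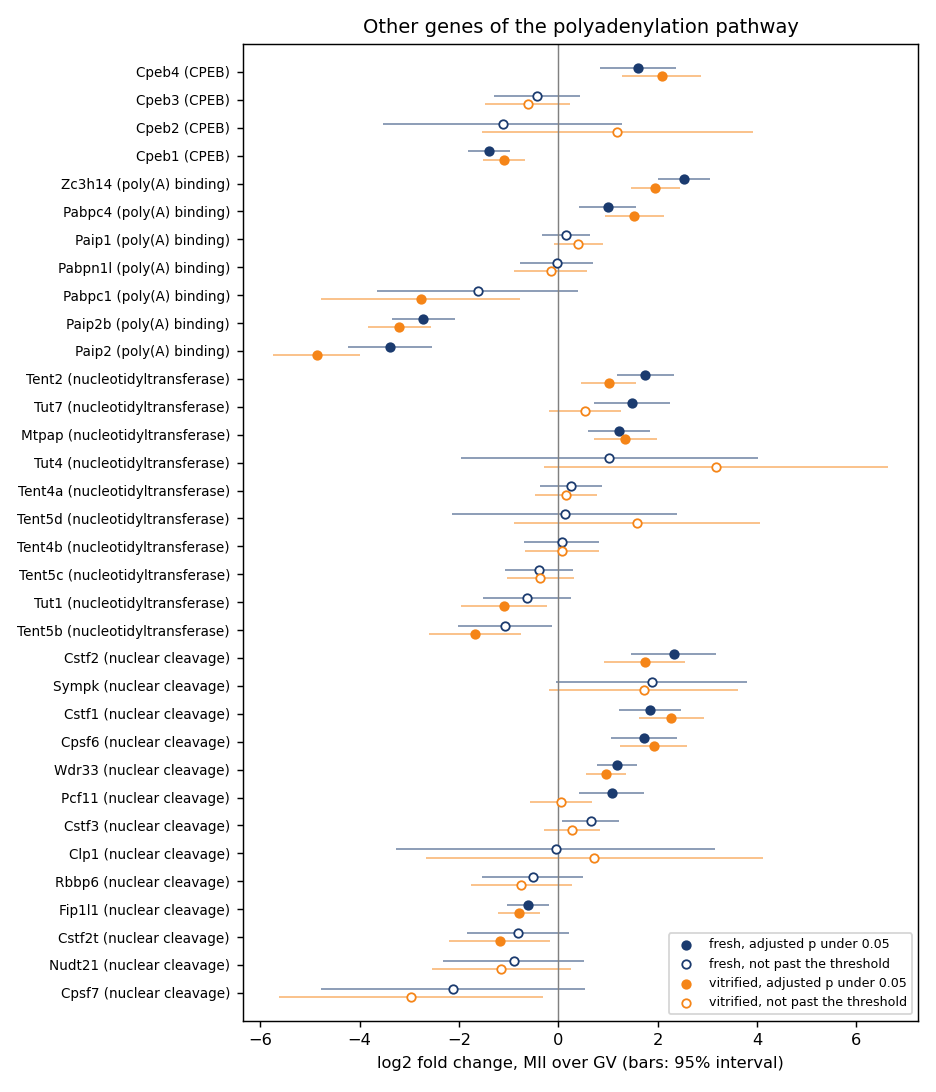
Log2 fold change between GV and MII oocytes (x axis, MII over GV) of the other pathway genes tested, by list, in fresh and vitrified oocytes, with 95% intervals. Zc3h14, Cstf1 and Cpeb4 lie to the right of 0 in both treatments, and Paip2 and Paip2b to the left.

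For each of the 9 genes, the 2 genes of the table with the most similar levels over all 32 oocytes were found by Pearson's r of log2 CPM, as a description. The 32 points share libraries and fall into 2 stages, so genes with a wide stage difference reach high values. Cpsf4l was nearest to Setd4 (r = 0.984) and Aven (0.982), both with means of 560.2 CPM or more in GV and of 34.1 CPM or less in MII. Pabpn1 was nearest to Selenow (0.960) and Pdpn (0.954). The levels of Cpsf2 ran with Rrm2b (0.931) and Zc3h12c (0.922), which were also higher in MII. Cpsf4 was nearest to Dpp8 (0.891) and Otub2 (0.890), and Cpsf3 to Dctn5 (0.868) and Cct5 (0.854). Pabpc1l was nearest to Tle6 (0.857), a gene of the oocyte's subcortical maternal complex, and Hif3a (0.851). Papola was nearest to Tbc1d14 (0.850) and Dip2b (0.844). For Cpsf1 they were Rbfox2 (0.806) and Myh9 (0.803), and for Papolg Fndc3a (0.743) and Paip1 (0.709), a partner of cytoplasmic poly(A)-binding protein. None of the 9 was among another's nearest pair.

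Some counts may be shared with neighbours. Exons of Cpsf3 overlap those of Itgb1bp1 on the opposite strand over 196 bases (3.71% of its exon length), and those of Cpsf1 overlap Adck5 over 14 bases. Exons of Papolg (91 bases, 1.66%, Gm12061) and Cpsf2 (147 bases, 2.56%, Ndufb1-ps) overlap opposite-strand genes that are not used here. Of the 50-base stretches of Papola, 1.04% recur in Gm14245 or Papolb, and Papola and Papolg share none.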

How the data were processed

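RNA of 32 single oocytes was measured with a SMART-Seq v4 low-input kit, per the labels' protocols. HISAT2, featureCounts and the genome build mm10 are named, without versions, in the submitters' processing notes. The deposited GV values are whole numbers and were read as counts. The deposited MII values were taken to be expected counts, with 11.7% to 19.7% of an oocyte's values not whole, and no source used here names the step behind this. Every value was rounded to the nearest whole number before testing, although counts had been planned for. After removal of 27 exact repeats from 13202 rows, 13175 genes remained, each with at least 10 counts over the MII oocytes, while 376 of them had no count in any GV oocyte. Genes absent from MII oocytes are thus outside the table. Gene positions, exon lengths and transcript ends came from GENCODE M21 on GRCm38, with 13059 genes matched by symbol.

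Library sizes were scaled with edgeR's TMM factors, which CPM include. Genes were filtered with filterByExpr (10 counts, 15 in total) and tested with the quasi-likelihood F test of edgeR 4.0.16 under R 4.3.3 (two-sided; p adjusted by Benjamini and Hochberg over all genes tested; threshold 0.05). Treatments were compared within a stage in fits of 8 GV and 24 MII oocytes, without a replicate block. For stages and the interaction, 4 group means were fitted to all 32 oocytes. SE is given for log2 fold changes and SD for levels. DESeq2 1.42.0, limma-voom (limma 3.58.1), other scalings and filters, the replicate number as a block, MII library series and the omission of each oocyte were alternatives. The fits were also run on simulated counts, and no result here rests on that run. It gave each gene the same dispersion in every group, so it does not cover a spread that differs between stages. Library series are the numbers in the labels' library names, under 20 or 20 and over.

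All 9 genes are named. By rule, up to 4 other pathway genes per list with the smallest p in a comparison, and the 2 genes most like each of the 9, are named as well. Papolb, Pabpc2 and Pabpc5 were on the lists and are not analysed here. The genes, lists and alternatives were chosen with earlier results of these data known.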

Additional observations from a re-analysis of the deposited data

Results flagged for a closer look

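Within the groups of 4 GV oocytes, a single oocyte stood apart from the rest in 2 of the 18 combinations of gene and group examined, and chance gives about 1 in 20. Papola was highest in GV fresh replicate 2, at 261 CPM, with a gap to the next oocyte of 0.839 of the whole range. Cpsf4l was highest in GV fresh replicate 4, at 2859 CPM, with a gap of 0.895 of the range. Leaving each oocyte out in turn, the stage difference of Cpsf4l in fresh oocytes ran from −7.13 to −6.64 on the log2 scale, and that of Papola from 0.38 to 0.61 without passing the threshold.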

How the results depend on the processing

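The calls of Cpsf4, Cpsf4l and Pabpn1 between stages kept their direction and stayed past the threshold in both treatments under every alternative in which they were tested. With each oocyte left out in turn, 3 to 5 of the 9 genes passed in fresh and 6 to 7 in vitrified stage comparisons and 0 in the treatment comparisons and the interaction. Over all genes 5413 to 6251 passed in fresh and 6032 to 6635 in vitrified oocytes, 0 to 4 in the interaction, 0 in GV and 0 to 1 in MII oocytes. DESeq2 called 52 genes in MII, 1 of the 9 (Papolg), and 8 in the interaction, where RLE scaling called 3. The fit of all 32 oocytes and library totals each called 1 gene in MII. Replicate numbers gave no clear pairing: deviations of same-numbered oocytes of the 2 treatments correlated from −0.38 to 0.19 in GV and from −0.33 to 0.28 in MII. The correlation was over 0.1 in 2 of 4 GV and 6 of 12 MII pairs. The same-numbered oocyte was the most similar one in 1 of 4 and 0 of 12. These correlations cannot exclude a shared mouse or culture. Some oocytes share a library number but not a replicate number, such as GV fresh replicate 2 and GV vitrified replicate 1 (both 82). Pairing by library number was not tested. With the replicate block 3 of the 9 passed between stages in fresh oocytes in place of 5 (Cpsf2 0.75, adjusted p = 0.0786; Cpsf3 −0.82, adjusted p = 0.0593), the vitrified stage difference of Papola was 0.21, and the number called did not change in the other comparisons. Some differences changed sign, and several of them were not near 0 in the main fit. There, Pabpc1l stood at −0.81, Cpsf1 at −0.54 and Papola at −0.36 for MII treatment. Papola stood at 0.46 for stage in fresh oocytes. With library numbers under 20 alone, log2 values were 0.45 for Cpsf1 (stage, fresh), 0.20 for Papola (stage, vitrified), −0.063 for Pabpn1 (MII treatment), and 0.15 for Cpsf4 and −0.10 for Pabpn1 (interaction). With those of 20 and over they were −0.20 for Papola (stage, fresh) and, for MII treatment, 0.45 for Cpsf1, 0.032 for Cpsf3, 0.037 for Pabpc1l and 0.070 for Papola. Without the 4 oocytes with cumulus transcripts they were 0.016 for Cpsf1 (stage, fresh), and 0.059 for Cpsf4 and −0.0040 for Pabpn1 (interaction). Library totals gave −0.071 and −0.014 for Pabpn1 (GV and MII treatment), and no filter gave 0.0073 for Papola (stage, vitrified). With single oocytes left out, ranges that crossed 0 were −0.32 to 0.25 for Cpsf1 and −0.12 to 0.16 and −0.35 to 0.13 for Papola and Papolg (stage, fresh for Cpsf1 and vitrified for the others), −0.19 to 0.25 and −0.039 to 0.26 for Pabpn1 and Papola (GV treatment), and −0.78 to 0.0046 and −0.13 to 0.30 for Cpsf4 and Pabpn1 (interaction). The causes were not tested. Cpsf4 was at 0 in 3 of 24 MII oocytes, where depth limits its level.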
